A study of Homo sapiens with 4 samples.

Results

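The control A549 transcriptome is described here from the libraries of cells that received control siRNA. Genes were chosen by their own level: a gene is a member when the mean of its values in the 2 control libraries is at least 10 FPKM (sequenced fragments divided by transcript length and by library depth). By this rule 6819 of the 57820 genes in the deposited table are members (11.8%), and among protein-coding genes 6240 of 19263 are (32.4%). The levels that follow are the values that chose the members, so they are given as a description and carry no test. Each pair of values is control 1 and then control 2, in FPKM. The deposited header does not name the unit, which was taken as FPKM. FPKM is scaled by transcript length, so levels of different genes can be set side by side, but only roughly. For some genes, such as near copies that can share reads, the level is uncertain, as given below.

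A549 is an established line of human lung adenocarcinoma cells that is known to carry an inactivated KEAP1, the inhibitor of the transcription factor NRF2. The cells were grown in DMEM with fetal bovine serum. They were transfected with control siRNA, received new medium 24 h later and were harvested after a further 24 h, so the control cells are transfected and not untouched. The other 2 of the 4 libraries of the series received siRNA against CEBPB and enter no value here. It is not labelled whether controls 1 and 2 are separate cultures, so the spread between them may be technical.

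NRF2 is a basic leucine zipper factor that pairs with small MAF proteins and binds the antioxidant response element in front of genes for glutathione and thioredoxin enzymes, quinone reduction, NADPH supply, iron storage and drug efflux. KEAP1 normally presents NRF2 to the CUL3 ubiquitin ligase for degradation, and loss of KEAP1 function lets NRF2 accumulate. A549 cells are also widely used as a stand-in for alveolar type II cells, which make lung surfactant, and they are known to secrete mucin and chemokines.

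The control columns summed to 513055 and 528606 FPKM, and 14084 and 13752 genes stood at 1 FPKM or more. Counts per library are not used here. The authors' mean normalized counts over all 4 libraries sum to 8341080. The depth of control 2 relative to control 1 was estimated as 0.967 from the steps of low FPKM values. This was the most frequent ratio, held by 88 of 975 genes above 0 in both libraries with a mean below 0.1 FPKM. Members between 10 and 12 FPKM had a median authors' mean count of 271. Across members the log2 difference of control 2 minus control 1, with a pseudocount of 1 FPKM, had a median of -0.02 and an SD of 0.26, and 95.7% of members lay within 0.5. The SD was 0.28 for the 2646 members between 10 and 20 FPKM and 0.20 for the 721 at 100 FPKM or more.

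Control 1 differed from control 2 in a set of skeletal muscle genes. ACTA1, the actin of skeletal muscle fibres, was at 23.9 FPKM in control 1 and 0.0822 in control 2. Its log2 difference was -4.53. TNNI2, a fast muscle troponin, was at 14.5 FPKM in control 1 and listed at 0 in control 2. CKM, the muscle creatine kinase, was at 6.65 FPKM and MYL3, a slow muscle myosin light chain, at 8.32 FPKM in control 1, and both were listed at 0 in control 2. Of 36 muscle genes, a list written after these differences were seen, 28 were above 0 in control 1 and 11 in control 2. Without TNNT1, which was at 45.4 and 48.5 FPKM, the list summed to 111 FPKM in control 1 and 4.27 in control 2. MYOD1 and MYOG, the factors that define the muscle lineage, were listed at 0 in both libraries. ACTA1 and TNNT1 are the members from this list, so the other muscle genes enter no member count below. The source of these transcripts was not tested.

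**Figure D1:**
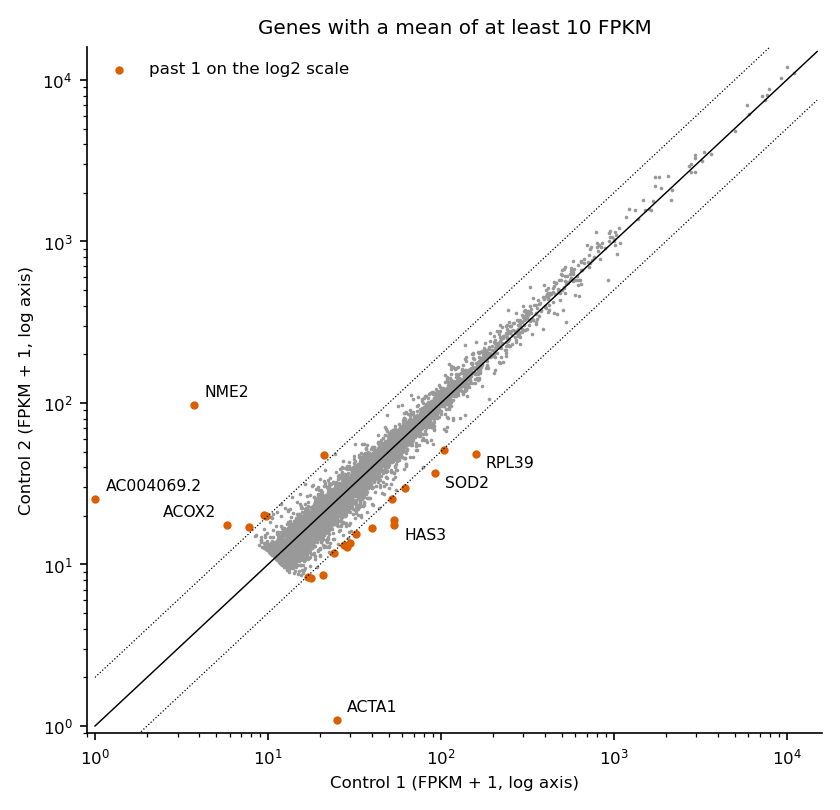
Level in control 1 (x axis) against control 2 (y axis), both as FPKM + 1 on log axes, for the 6819 members. The solid line marks equal values and the dotted lines a log2 difference of 1 either way. Orange points lie past 1, with 7 genes higher and 17 lower in control 2, and NME2, AC004069.2 and ACTA1 lie farthest from the line.

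Past a log2 difference of 1, 7 members were higher in control 2 (0.103%) and 17 were lower (0.249%). HAS3, a hyaluronan synthase, was at 52.8 and 16.5 FPKM and had an authors' mean count of 1655. SOD2, the mitochondrial superoxide dismutase, was at 90.9 and 35.8 FPKM. The nuclear long noncoding RNA MALAT1 was at 103 and 50.1 FPKM. These genes were higher in control 1, whereas ACOX2, a peroxisomal oxidase of bile acid intermediates, was at 4.77 and 16.5 FPKM. NME2 was at 2.73 and 95.7 FPKM, but its identifier is that of the NME1-NME2 readthrough locus in GENCODE 29 and its authors' mean count is 0, so this level is uncertain. None of the 102 NRF2 programme members described below lay past 1.

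The head of the ranking was held by mitochondrial transcripts and ferritin. The 13 mitochondrially encoded proteins took 14.2% and 14.8% of the summed FPKM. MT-CO1, a subunit of cytochrome c oxidase, ranked 1 at 11065 and 11122 FPKM. FTL, the ferritin light chain, ranked 7 at 7487 and 7482 FPKM, and FTH1, the heavy chain, ranked 10 at 5053 and 4829. Ferritin is the iron store of the cell, and its chains are the highest genes outside the mitochondrial genome. Together they took 2.44% and 2.33% of the summed FPKM.

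Next among nuclear genes came the cytoskeleton, a retinal-oxidising enzyme and glycolysis. ACTB, the cytoplasmic beta actin, was at 2716 and 2938 FPKM and ACTG1, the gamma actin, at 2141 and 1817. ALDH1A1, an aldehyde dehydrogenase that makes retinoic acid, ranked 20 at 2060 and 2534 FPKM. KRT8 was at 1835 and 2517 FPKM and its filament partner KRT18 at 1740 and 2502, both higher in control 2. The glycolytic enzyme GAPDH stood at 1886 and 2138 FPKM. Of the 25 highest entries, hsa-mir-6723, MTATP6P1 and RP5-857K21.11 are nuclear copies of mitochondrial genes. Each lay between 2953 and 3408 FPKM in the libraries, and reads of the mitochondrial originals can be assigned to them. Among the 6819 members, 410 are pseudogenes in GENCODE 29, 343 of them processed, and the pseudogenes took 7.53% and 7.81% of the summed FPKM.

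**Figure D2:**
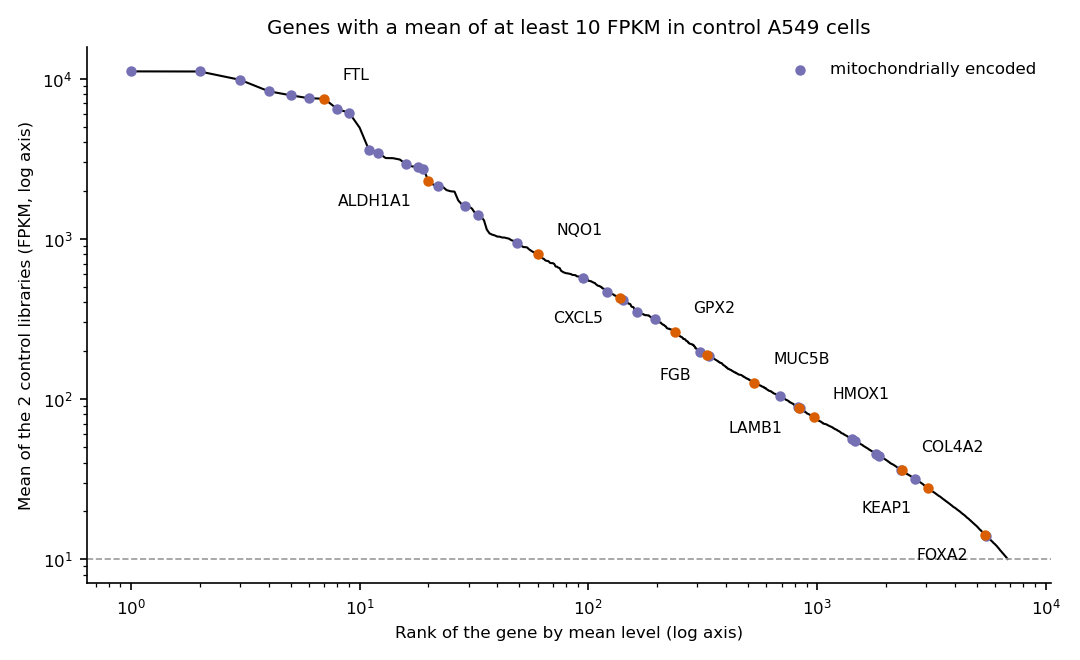
Mean level of the 6819 members in FPKM (y axis, log) against rank (x axis, log). Purple points are mitochondrially encoded genes, orange points are genes named in the text, and the dashed line marks 10 FPKM. The 25 highest genes took 22.8% and 23.8% of the summed FPKM and the 1000 highest 62.9% and 65.0%.

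All 77 cytosolic ribosomal proteins listed were members, with a median of 393 FPKM. Of 25 glycolysis genes 18 were members. PKM was at 1682 and 1787 FPKM and LDHA, which makes lactate from pyruvate, at 1064 and 1216. For the first step of glucose use, HK1 was at 17.6 and 21.2 FPKM whereas HK2 was at 0.687 and 0.591 and HK3 was listed at 0. All 25 proliferation genes were members, among them the replication clamp PCNA at 339 and 447 FPKM and MKI67 at 75.1 and 73.0 FPKM.

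Of 154 listed NRF2 programme genes, 102 were members (66.2%), 32 of them at 100 FPKM or more, and 19 were listed at 0 in both libraries. Among all protein-coding genes 32.4% were members and 26.4% were listed at 0. Members of the programme had a median of 58.4 FPKM, where all members had 24.8. The programme took 5.63% and 5.58% of the summed FPKM. The list was written knowing that NRF2 is active in A549, so the share is a description of the line. It holds whole enzyme families and regulators beside named NRF2 targets, so the share does not measure NRF2 output. FTL and FTH1 alone took 2.44% and 2.33% of the summed FPKM.

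**Figure D3:**
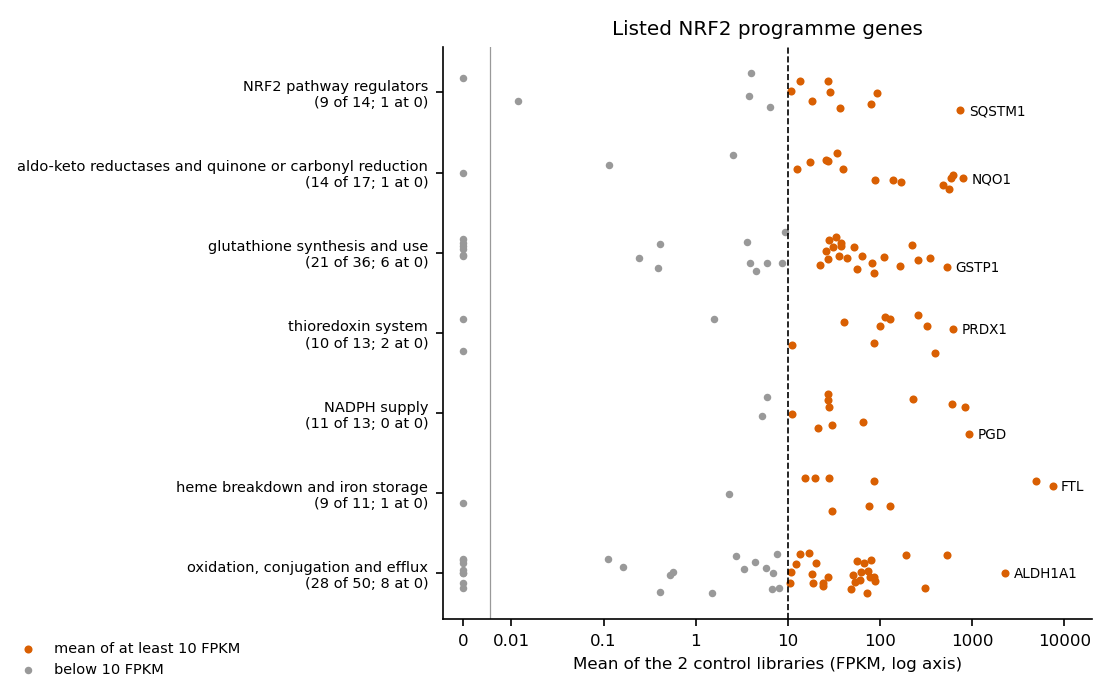
Mean of the control libraries in FPKM (x axis, log) for the listed NRF2 programme genes, with 1 row per list. Orange points are members and grey points lie below 10 FPKM, the column at the left holds genes listed at 0 in both libraries, and labels give members and zeros of all genes in the list. FTL, FTH1 and ALDH1A1 lie farthest to the right, and each list holds more members than genes below the threshold.

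Of 14 regulators 9 were members, 1 of them at 100 FPKM or more. The NRF2 gene, NFE2L2, was at 37.9 and 35.6 FPKM, and its relative NFE2L1 at 82.9 and 76.3. Among the small MAF partners, MAFK was at 99.8 and 84.4 FPKM, MAFG at 21.3 and 14.9 and MAFF at 4.24 and 3.70. KEAP1 was at 29.4 and 25.8 FPKM and CUL3 at 13.8 and 13.5, so the transcripts of the degrading ligase were present in both libraries. BACH1, a repressor that competes with NRF2 for its sites, was below the threshold at 4.27 and 3.29 FPKM. SQSTM1, an autophagy receptor that binds KEAP1, was the highest regulator at 919.6 and 576 FPKM.

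The core of the antioxidant response element, TGACNNNGC, was searched on both strands in the 250 bases before the RefSeq gene start. Of the 102 programme members, 80 had a promoter entry, and 15 of these held the core (18.8%). It stood in 622 of 4944 promoters of all members with an entry (12.6%), in 3004 of all 27195 promoters (11.05%), and in 6 of 46 promoters of programme genes below the threshold (13.04%). A match is a description of the letters and not a binding site. The windows below are shown for 7 of the 15 genes, which serve glutathione, thioredoxin and NADPH supply. These were picked by hand as enzymes or subunits described in the text and not by level. CBR1, GSTO1, RPE, ABCC4, AKR7A2, FECH, ABCB6 and RBX1 also held the core and are not shown. NQO1, GCLC, HMOX1 and SRXN1 were not among the 15, through lack of the core in these 250 bases or of a promoter entry. Bases farther from the start were not searched. The windows are from RefSeq, build GRCh38.p14, read on the strand of the gene, and capitals mark the core or its reverse complement GCNNNGTCA. PGD lies at chr1:10398843-10398891 (plus strand), GSTP1 at chr11:67583726-67583774 (plus), TXNRD1 at chr12:104215660-104215708 (plus), GPX2 at chr14:64942839-64942887 (minus), SLC3A2 at chr11:62881642-62881690 (plus), GCLM at chr1:93909436-93909484 (minus) and ME1 at chr6:83431160-83431208 (minus).
PGD: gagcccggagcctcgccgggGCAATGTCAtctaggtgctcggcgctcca
GSTP1: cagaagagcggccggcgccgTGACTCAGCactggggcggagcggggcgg
TXNRD1: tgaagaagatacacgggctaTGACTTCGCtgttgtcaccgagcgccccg
GPX2: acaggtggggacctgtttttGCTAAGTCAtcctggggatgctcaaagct
SLC3A2: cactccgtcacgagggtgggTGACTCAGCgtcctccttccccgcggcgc
GCLM: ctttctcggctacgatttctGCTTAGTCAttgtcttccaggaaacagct
ME1: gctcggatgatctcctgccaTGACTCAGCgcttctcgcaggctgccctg
The capitals begin 201 bases before the start in PGD, 66 in GSTP1, 99 in TXNRD1, 122 in GPX2, 37 in SLC3A2, 34 in GCLM and 137 in ME1. In GSTP1, SLC3A2 and ME1 the core overlaps TGANTCA, the letters bound by the AP-1 family, so there the same bases match both motifs.

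Of 17 genes of quinone and carbonyl reduction 14 were members, 7 of them at 100 FPKM or more. NQO1, the quinone reductase most often used as a readout of NRF2, was at 828 and 772 FPKM. The aldo-keto reductases AKR1B1, at 612 and 578 FPKM, AKR1C2, at 562 and 684, AKR1B10, at 497 and 624, and AKR1C3, at 448 and 528, reduce aldehydes, prostaglandins and steroids. Reads of the AKR1C genes can be assigned to more than 1 of these near copies, so single levels are uncertain, and their sum was 1191 and 1441 FPKM. AKR1C4 was at 28.6 and 39.7 FPKM with an authors' mean count of 6.23, and how its reads were assigned was not tested. AKR1D1, the steroid 5-beta-reductase of liver, was listed at 0. Outside the family, CBR3, a carbonyl reductase, was below the threshold at 2.51 and 2.54 FPKM.

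Glutathione genes gave 21 members of 36. For supply, SLC3A2, the heavy subunit of the cystine importer, was at 205 and 244 FPKM and SLC7A11, its transporting subunit, at 25.2 and 27.1. The heavy subunit also serves other amino acid transporters. The catalytic subunit GCLC of the rate-limiting ligase was at 63.3 and 63.1 FPKM and its modifier GCLM at 40.4 and 36. GSR, which regenerates glutathione, was at 168 and 162 FPKM. Among users of glutathione, GSTP1 was at 491 and 576 FPKM, MGST1, a membrane-bound transferase, at 325 and 366, and GPX2, a peroxidase known from gut epithelium, at 245 and 277. GPX4, which reduces lipid peroxides, was at 106 and 117 FPKM and GPX1, the widespread cytosolic form, at 25.9 and 30.2. The alpha class transferases GSTA1 and GSTA2 and the theta class GSTT1 were listed at 0, as were GPX5, GPX6 and GPX7.

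In the thioredoxin system 10 of 13 genes were members and 7 of them stood at 100 FPKM or more. PRDX1, a peroxide-reducing enzyme, was at 584 and 649.9 FPKM, TXNRD1, the cytosolic thioredoxin reductase, at 422 and 374, and TXN, thioredoxin itself, at 327 and 320.3. SRXN1, which repairs overoxidised peroxiredoxins, was at 138 and 121 FPKM. TXNIP, the thioredoxin-binding protein that also restrains glucose uptake, was listed at 0 in both libraries and had an authors' mean count of 0.490. PRDX2, an abundant peroxiredoxin in many cells, was also listed at 0, with an authors' mean count of 1.70.

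NADPH is the reducing agent for these systems, and all 7 pentose phosphate genes were members. PGD was at 859 and 981 FPKM, TKT, a transketolase, at 734 and 929, and TALDO1, a transaldolase, at 225 and 233. RPIA, the isomerase of ribose phosphate, was the lowest at 10.7 and 11.4 FPKM. PGLS, the lactonase of the pathway, was at 27.99 and 27.7 FPKM and RPE, an epimerase, at 27.3 and 27.1. Among 6 other NADPH sources 4 were members. IDH1, the cytosolic isocitrate dehydrogenase, was at 64.4 and 66.2 FPKM and the malic enzyme ME1 at 30.1 and 30.4. Both stood below PGD, TKT and TALDO1 and above PGLS, RPE and RPIA in both libraries.

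Heme and iron genes gave 9 members of 11. HMOX1, which opens the heme ring, was at 74.1 and 79.4 FPKM and BLVRB, a biliverdin reductase, at 137 and 117. TFRC, the receptor for iron-loaded transferrin, was at 88.3 and 85.2 FPKM. SLC40A1, the iron exporter ferroportin, was below the threshold at 2.41 and 2.24 FPKM. Of the 6 genes of iron storage and transport 4 were members and 1 was listed at 0 in both libraries.

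Of 50 genes of oxidation, conjugation and efflux, 28 were members. ALDH3A1, an aldehyde dehydrogenase of cornea and airway, was at 293 and 318 FPKM. CYP24A1, which inactivates vitamin D, was at 528 and 547 FPKM, far above CYP1B1, a hydrocarbon-oxidising enzyme, at 89.2 and 54.9. CYP1A1, CYP3A4 and CYP2A6, drug-oxidising enzymes of liver and other tissues, were listed at 0. For conjugation, UGDH, which makes the sugar donor, was at 190.3 and 197 FPKM, while the transferase UGT1A6 was at 0.588 and 0.544. UGT1A genes overlap at 1 locus and cannot be told apart with certainty. The efflux pumps ABCC2, at 93.8 and 81.1 FPKM, ABCC3, at 81.3 and 78.6, and ABCC1, at 55.6 and 56.8, were members, and ABCB1, the multidrug pump P-glycoprotein, was not, at 2.67 and 2.87. The NRF2 targets TRIM16, at 90.1 and 67.1 FPKM, OSGIN1, at 56.2 and 44.8, and PIR, at 52.0 and 55.0, were also members.

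The lineage lists were checked against the label of the cells. Of 105 lineage genes 25 were members (23.8%) and 33 were listed at 0. Over all protein-coding genes 32.4% were members and 26.4% were listed at 0. Of 14 alveolar type II markers 8 were listed at 0 in both libraries. SFTPA1, SFTPA2, SFTPB and SFTPD, the surfactant proteins, and NKX2-1, the lung lineage factor, were among these 8. SFTPC, the surfactant protein most specific to these cells, was at 0.914 FPKM in control 1 and listed at 0 in control 2. SLC34A2, the phosphate transporter of type II cells, was another of the 8 listed at 0 in both. NAPSA, a protease that processes surfactant, was at 0.890 and 0.586 FPKM. Of the 14 markers, 3 were members: the lipid enzyme LPCAT1 at 40.5 and 42.8 FPKM, the lamellar body transporter ABCA3 at 14.6 and 11.2 and the factor ETV5 at 13.6 and 12.5.

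Of 29 markers of other lung cell types, 2 were members, or 4 with the columns rescaled to the total of TPM, which raises every value. The first, TUBB4B, a tubulin of cilia that other cells also make, was at 294 and 274 FPKM. All 6 club cell genes, SCGB1A1 among them, were listed at 0. The second, CAV1, a caveola protein of alveolar type I and many other cells, was at 60 and 65.7 FPKM, whereas AGER, a type I marker, was at 2.14 and 2.09 and PDPN and AQP5 were listed at 0. SOX2, a factor of basal cells and squamous tumours, was at 7.10 and 6.20 FPKM and KRT14 was listed at 0. Of the neuroendocrine genes SYP, a synaptic vesicle protein, was at 4.09 and 2.27 FPKM.

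**Figure D4:**
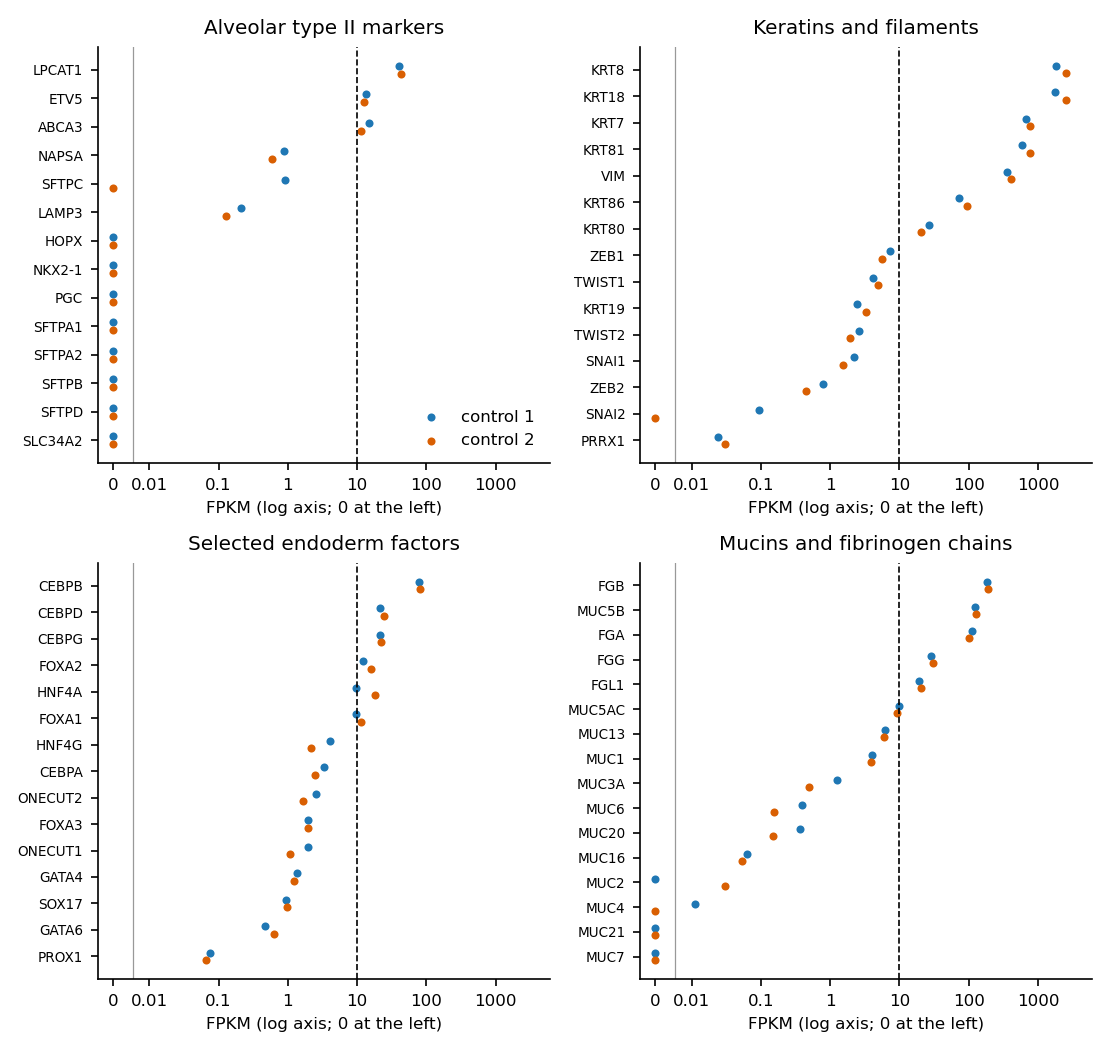
Level in control 1 (blue) and control 2 (orange) in FPKM (x axis, log) for alveolar type II markers, keratins and filaments, a selection of endoderm factors, and mucins with fibrinogen chains. The dashed line marks 10 FPKM, values under 0.01 are drawn at 0.01, and the column at the left of each panel holds values listed at 0. Among alveolar type II markers 3 of 14 lie right of the line, and all 4 fibrinogen family genes do.

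Of 17 forkhead, HNF, GATA and C/EBP factors 7 were members (41.2%), CEBPB, CEBPD and CEBPG among them. In the whole endoderm and gut list 8 of 29 genes were members (27.6%). Among all protein-coding genes the share was 32.4%. The list had 6 members when both libraries had to reach 10 FPKM. FOXA2 was at 12.3 and 16.1 FPKM, HNF4A at 9.52 and 18.4 and FOXA1 at 9.48 and 11.4. These are regulators of endoderm-derived epithelia, and the value of HNF4A in control 2 was the higher of its pair. Of the C/EBP family, CEBPB was at 78.7 and 80.9 FPKM, CEBPD at 21.6 and 24.2 and CEBPG at 21.6 and 21.8, while CEBPA was at 3.28 and 2.43. CEACAM6, an adhesion molecule of gut and tumour epithelia, was the 1 member of 12 intestinal and gastric markers, at 10.8 and 14.8 FPKM. CDX1, CDX2, TFF1, TFF2 and TFF3 were listed at 0.

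Simple epithelial keratins were high and adhesion was mixed. Besides KRT8 and KRT18, KRT7 was at 671 and 777 FPKM, and KRT81, a hair keratin, at 582 and 759. KRT86, a near copy of KRT81, was at 72.6 and 95.7 FPKM and is uncertain because the paralogs can share reads. KRT19, a simple keratin, was at 2.41 and 3.28 FPKM. VIM, the vimentin filament of mesenchymal cells, was at 355 and 403 FPKM, above CDH1, or E-cadherin, at 20.2 and 32.1. CDH2, or N-cadherin, was at 3.80 and 3.90 FPKM and EPCAM, an epithelial adhesion molecule, at 1.92 and 3.52. ESRP2, GRHL2 and OVOL1, factors that hold the epithelial state, were listed at 0, while ZEB1, their opponent, was at 7.37 and 5.50 FPKM. Claudin 1, CLDN1, at 55.4 and 51.2 FPKM, and the junction scaffold TJP1, at 40.9 and 39.7, were members.

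Of 123 secretory genes 29 were members (23.6%, against 32.4% of all protein-coding genes) and 42 were listed at 0. MUC5B, the gel-forming mucin of airway glands, was at 124 and 128 FPKM and the 1 member of 12 mucins. MUC5AC, the surface mucin, was just under the threshold at 9.84 and 9.07 FPKM, and MUC1, a membrane mucin, was at 3.95 and 3.88. AGR2, the disulfide isomerase of mucin folding, was at 119 and 162 FPKM, and SPDEF, the goblet cell factor, at 8.93 and 14.8. Of the 20 mucin and folding genes 3 were members, or 5 with the columns rescaled to the total of TPM.

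Of 51 genes of acute phase, complement and coagulation 17 were members (33.3%). Of 27 liver-type plasma and metabolic genes 5 were (18.5%). The share was 32.4% among all protein-coding genes. All fibrinogen chains were members: FGB at 183 and 191 FPKM, FGA at 112 and 99.1 and FGG at 28.6 and 29.96, with the related FGL1 at 19.1 and 20.3. CLU, or clusterin, an extracellular chaperone, was at 221 and 192 FPKM, and C3, the central complement factor, at 62.0 and 74.3. LCN2, which binds bacterial siderophores, was at 69.4 and 64.3 FPKM and the copper carrier CP at 48.9 and 41.8. CRP, HP, ORM1 and ORM2, the acute phase proteins of hepatocytes, were listed at 0. ALB, or albumin, was at 0.606 and 0.531 FPKM, and AFP, TTR and APOA1 were listed at 0. The urea cycle enzymes ASS1, at 25.9 and 35.8 FPKM, and CPS1, at 19.2 and 19.7, were members, and OTC, which acts between them, was listed at 0. APOC1, a lipoprotein component, was at 36.3 and 53.7 FPKM.

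Protease inhibitors and defence proteins gave 4 members of 25. CST3, or cystatin C, was at 96.2 and 103 FPKM and SLPI, an inhibitor of neutrophil elastase, at 38.1 and 47.4. SERPINA1, the plasma elastase inhibitor, was at 0.236 FPKM in control 1 and listed at 0 in control 2. The airway defence proteins LTF, or lactoferrin, and LYZ, or lysozyme, were listed at 0.

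Matrix genes gave 46 members of 167 (27.5%, against 32.4% of all protein-coding genes) and 45 were listed at 0. Of 44 collagen chains, 5 were members: COL4A2 at 39.2 and 32.4 FPKM, COL18A1 at 21.6 and 20.8, COL7A1 at 22.1 and 16.7, COL4A1 at 17.7 and 14.4 and COL5A2 at 15.3 and 15.3. Type IV and XVIII collagen belong to basement membrane and type VII anchors it. Of the fibrillar collagens COL5A2 was thus a member, while COL5A1 was at 0.394 and 0.526 FPKM, COL1A1 at 0.717 and 0.573 and COL3A1 at 0.0171 and 0.0194, and COL1A2 was listed at 0. The laminin chains LAMB1, at 93.2 and 82.8 FPKM, LAMA5, at 86.2 and 70.4, LAMC1, at 55.1 and 50.9, and LAMB2, at 30.9 and 25.6, were members, 4 of 12 chains, or 7 with the columns rescaled to the total of TPM. LAMA5 joins LAMB1 or LAMB2 and LAMC1 in laminin trimers, whereas LAMA3 and LAMB3, chains of an epithelial trimer, were at 6.68 and 5.04 FPKM and at 7.003 and 6.88 FPKM.

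The receptors for matrix were led by ITGB1, the common beta chain, at 592 and 574 FPKM. ITGA3, its laminin-binding partner, was at 83.9 and 70.5 FPKM, ITGB5 at 56.4 and 61.6 and ITGB4, a hemidesmosome chain, at 32.1 and 31.4. TGFBI, a TGF-beta-induced adhesion protein, was at 334 and 329.8 FPKM, SPP1, or osteopontin, at 102 and 123 and FN1, or fibronectin, at 49.9 and 63.5. The proteoglycans VCAN, at 64.1 and 71.7 FPKM, and SDC1, at 58.5 and 59.7, were also members. SPARC, POSTN, DCN, LUM and BGN, matrix proteins of stromal cells, were listed at 0.

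For matrix processing, P4HB, a subunit of the collagen prolyl hydroxylase and a disulfide isomerase, was at 354 and 356 FPKM and SERPINH1, the collagen chaperone, at 81.5 and 72.1. The 3 lysyl hydroxylases PLOD1, PLOD2 and PLOD3 lay between 30.5 and 53.5 FPKM. LOXL2, a cross-linking oxidase, was at 26.3 and 22.6 FPKM and LOX at 0.308 and 0.416. Of 24 metalloproteinases, MMP7, or matrilysin, at 14.8 and 14.3 FPKM, and MMP24, at 12.7 and 12.5, were members and 11 were listed at 0. PLAU, the urokinase plasminogen activator, was at 60.9 and 44.8 FPKM and the inhibitor TIMP1 at 56.7 and 67.5.

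Of 232 cytokine, growth factor and receptor genes, 45 were members (19.4%, against 32.4% of all protein-coding genes) and 103 were listed at 0. Of 48 chemokines 7 were members: CXCL5 at 329 and 522 FPKM, CXCL1 at 266 and 273, CCL2 at 74.2 and 70.1, IL8 at 62.3 and 53.8, CXCL3 at 43.2 and 45.7, CXCL2 at 40.9 and 40.5 and CCL20 at 28.5 and 27.2. Of these, CXCL1, CXCL2, CXCL3, CXCL5 and IL8 attract neutrophils, CCL2 attracts monocytes and CCL20 attracts cells with the receptor CCR6. CXCL9, CXCL10 and CXCL11, which interferon induces, and CXCL12 were among the 30 chemokines listed at 0. CXCL5 was higher in control 2, while the other 6 differed by less between the libraries.

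**Figure D5:**
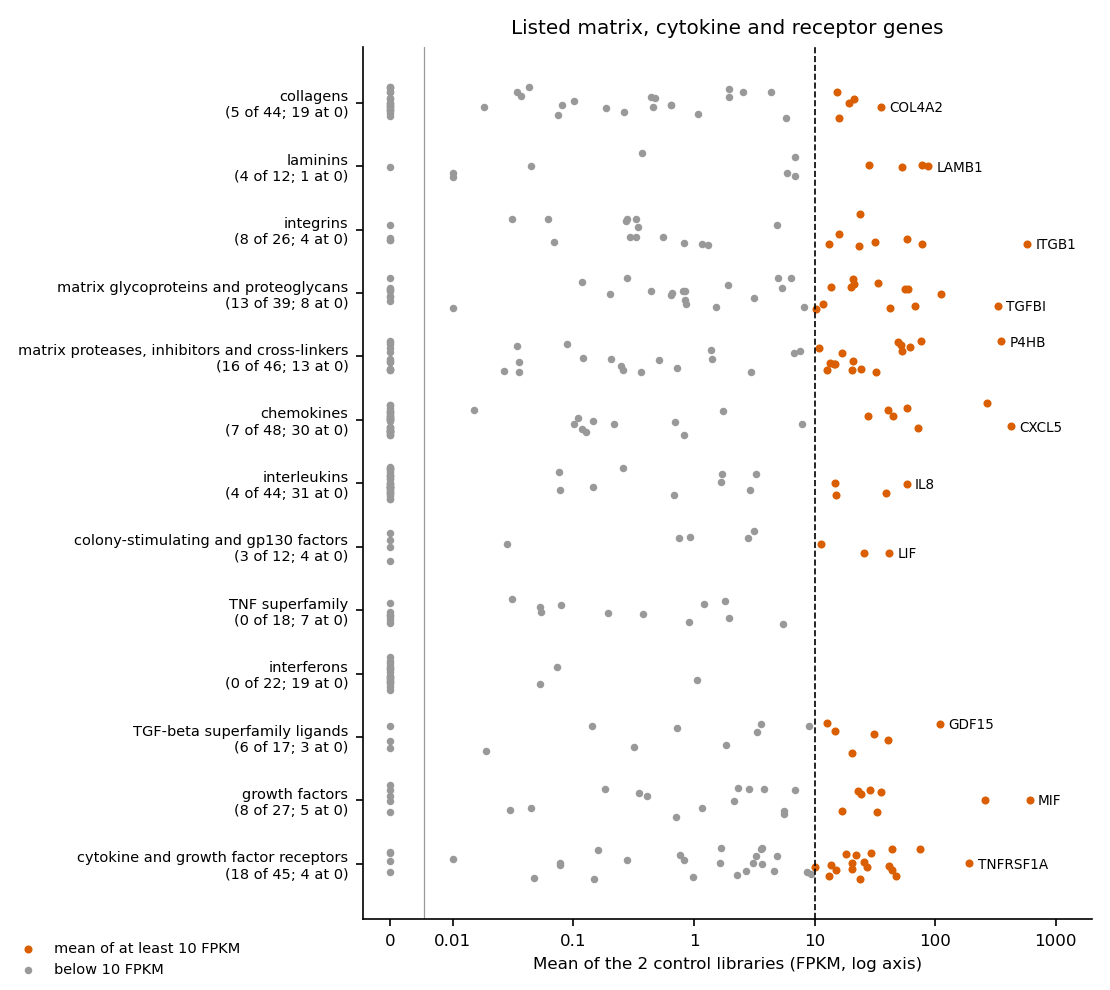
Mean of the control libraries in FPKM (x axis, log) for the listed matrix, cytokine and receptor genes, with 1 row per list. Orange points are members, grey points lie below 10 FPKM, values under 0.01 are drawn at 0.01, the column at the left holds genes listed at 0 in both libraries, and labels give members and zeros of all genes in the list. The TNF superfamily and the interferons hold no member, and 31 of 44 interleukins are listed at 0.

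Interleukins were few. Beside IL8, IL18, an inflammasome-processed cytokine, was at 39.7 and 37.99 FPKM, IL32 at 15.6 and 14.5 and EBI3, a subunit of dimeric cytokines, at 15.03 and 14.5. IL6, a driver of the acute phase response, was at 0.614 and 0.749 FPKM, and IL1B, IL10 and IL33 were listed at 0. LIF, which signals through gp130, was at 43.5 and 39.4 FPKM and CLCF1, of the same family, at 29.4 and 22.1. None of the 18 TNF superfamily ligands and none of the 22 interferons was a member, and 19 interferons were listed at 0. With the columns rescaled to the total of TPM, 1 TNF superfamily ligand passed the threshold. TNF was listed at 0, and TNFSF12 was the highest ligand of its family at 4.74 and 6.11 FPKM. CSF2, or GM-CSF, was listed at 0 and CSF3, or G-CSF, was at 3.26 and 2.31 FPKM.

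Among growth factors, GDF15, a stress-induced TGF-beta relative, was at 137 and 83.1 FPKM, TGFB1 at 39.2 and 41.9 and BMP4 at 30 and 32.2. The EGF receptor ligands AREG, at 39.99 and 31.5 FPKM, and EREG, at 32.6 and 24.7, and NRG1, a ligand of ERBB3 and ERBB4, at 35.7 and 30.1, were members. AREG is uncertain, since its authors' mean count is 13.8. EGF itself was listed at 0 in control 1 and was at 0.0883 FPKM in control 2. VEGFA, the vessel growth factor, was at 22.5 and 25.6 FPKM. MIF was listed at 521 and 696 FPKM but has an authors' mean count of 3.21, so its level is uncertain.

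Of 45 cytokine and growth factor receptors 18 were members (40%, against 32.4% of all protein-coding genes). EGFR was at 30.8 and 27.9 FPKM and ERBB2 at 21.7 and 22.4, whereas ERBB3 was at 2.78 and 3.77 and ERBB4 was listed at 0. MET, the receptor of HGF, was at 49.6 and 44.3 FPKM, while HGF was at 0.0598 FPKM in control 1 and listed at 0 in control 2. TNFRSF1A, the widespread TNF receptor, was at 189 and 196 FPKM and TNFRSF1B, the leukocyte form, was listed at 0. The interferon gamma receptor chains IFNGR1, at 24.5 and 23.4 FPKM, and IFNGR2, at 20.96 and 19.7, were members, and IL6ST, the gp130 chain, was at 27.3 and 27.7. The transforming growth factor receptor TGFBR2 was at 46.4 and 37.1 FPKM and its partner TGFBR1 at 3.17 and 4.22.

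Genes listed at 0 in both libraries numbered 33685 of 57820 (58.3%), and 5083 of the protein-coding genes (26.4%). Of these 33685, 32 had an authors' mean count of at least 10, which includes the CEBPB siRNA libraries, and the highest such count was 67.8. CDKN2A and CDKN2B, cell cycle inhibitors from a locus known to be deleted in A549, were listed at 0, as was CDKN2B-AS1. Their neighbour MTAP, a methionine salvage enzyme from the same deleted locus, was at 6.71 and 5.65 FPKM but has an authors' mean count of 2.02, whereas KLHL9, farther away, was at 6.53 and 5.79 FPKM with a mean count of 299.5. SMARCA4, a chromatin remodeller known to be truncated in A549, was at 5.02 and 4.01 FPKM, and its paralog SMARCA2 at 6.02 and 5.14. STK11, a kinase also known to be lost as a protein, was a member at 18.4 and 15.5 FPKM.

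Most listed markers of other cells were below 1 FPKM or at 0, apart from the skeletal muscle genes in control 1 described above, most of which are not in this list. Of 50 listed markers of leukocytes, endothelium, red cells, fibroblasts, muscle and nerve, 28 were listed at 0 and 1 was a member, the tubulin TUBB3 at 85.4 and 114 FPKM. PTPRC and CD3E for leukocytes, VWF and CDH5 for endothelium, and COL1A2, DCN and PDGFRB for fibroblasts were listed at 0. CD68, a lysosomal protein of macrophages, was at 7.09 and 9.72 FPKM and ACTA2, the smooth muscle actin, at 4.71 and 3.36. A further 4731 genes were listed at 0 in 1 library only, with a median of 0.185 FPKM in the other. AC004069.2, listed at 0 in control 1 and at 24.4 FPKM in control 2, was the 1 member among them and has an authors' mean count of 1.262.

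At the threshold itself, the members just inside were RXRA at 10.7 and 9.30 FPKM, PRICKLE3 at 10.8 and 9.25, RP11-9L18.2 at 10.3 and 9.67, EVL at 9.50 and 10.5 and RP11-187O7.1 at 10.6 and 9.42. Just outside were ZNF587B at 11.5 and 8.44 FPKM, SYS1 at 10.03 and 9.95, PDE3A at 8.94 and 11.03, URGCP at 11.3 and 8.69 and PPM1A at 10.3 and 9.70. The spread between the libraries was wider than the distance of these genes from 10 FPKM, so their side of the threshold is not stable.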

How the data were processed

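Total RNA of A549 cells was sequenced as strand-specific single-end libraries, per the labels' protocols. The submitters' processing notes name the build hg19 and, without giving their roles, DESeq2 1.26.0, HTSeq 0.13.5, StringTie 2.1.4 and STAR 2.7.0d. The deposited per-library values were taken as FPKM, since the deposited header does not name the unit and the columns do not share a total. The deposited signal column is the authors' mean normalized count over all 4 libraries, the CEBPB siRNA libraries included. It was used as a check of read support.

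A gene is a member where the 2 control libraries average at least 10 FPKM. No test was run: the members are chosen by the values described, and the control libraries form 1 group. Biotypes came from GENCODE 29 by gene ID (52338 of 57820 matched), and promoters from RefSeq by symbol. The 35 gene lists were written for this re-analysis, with 979 symbols in the table, 5 of which had more than 1 gene ID (the highest was kept). The members and lists were chosen with earlier results of these data known, and 1 symbol was corrected after the values were at hand. Named genes are the 25 highest, up to 4 members with the highest mean per role beside well-known members that were low or listed at 0, the 5 genes on each side of the threshold, and the 10 largest differences between the libraries. Not every such gene is shown, and the muscle genes, MALAT1 as a difference, and some other members were chosen after their values were seen. Python 3.11.15 with pandas 2.3.3 and numpy 2.4.6 was used. Alternatives were other thresholds and scalings, each library alone, other pseudocounts and filters, an authors' mean count of at least 10, and protein-coding genes alone. The scripts were tested on simulated data. Values of some listed genes are not reported here.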

Additional observations from a re-analysis of the deposited data

How the results depend on the processing

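The number of members was 6508 when both libraries had to reach 10 FPKM. With each column rescaled to the fixed total of TPM it was 9236. It was 6820 with median ratio scaling, 6692 without control 1 and 6956 without control 2. Without mitochondrially encoded genes it was 7566. For that count the remaining genes were rescaled to the original total of each column, which raises their values. Of 280 alternatives for the 35 lists, 272 kept the count of members within 1.5 times. With each column rescaled to the fixed total of TPM, laminins had 7 members, mucins and their folding genes 5, other lung markers 4 and the TNF superfamily 1. Markers of other cell types had 3 members after that rescaling and 2 without mitochondrially encoded genes, where 1 was reported. The 100 highest genes took 24.5% of the summed FPKM without mitochondrially encoded genes. Members past 1 in the log2 difference numbered 231 at a mean of at least 1 FPKM and 487 with no filter, where 24 were reported. Of alternatives chosen after seeing the data, an authors' mean count of at least 10 left 6450 members and protein-coding genes alone 6240. With 1 group of 2 libraries, no interval was computed, and the depth per library is known only through the relative steps of low values. No paired analysis was possible because 1 group was described and no test was made.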

Other observations

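The FPKM values and the authors' mean normalized counts differed widely for some members. Of the 6819 members, 369 (5.41%) had an authors' mean count below 10, and 77 of these had a count of 0. They included 267 pseudogenes, 65 protein-coding genes and 16 of the 19 mitochondrial tRNAs that are members. EEF1G, a subunit of translation elongation factor 1, was at 566 and 652 FPKM with a mean count of 0.243. MTND1P23, a nuclear copy of a mitochondrial gene, was at 937 and 1003 FPKM with a mean count of 4.78. FTH1P10, a processed copy of FTH1, was at 352 and 318 FPKM with a mean count of 1.21. Among the listed genes 3 members had a mean count below 10, AKR1C4 and MIF among them. How each kind of value was assigned between near-identical loci was not tested.

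Long noncoding members included C17orf76-AS1 at 308 and 359 FPKM, SNHG5 at 128 and 119, GAS5 at 111 and 128 and NEAT1 at 85.5 and 70.9. These RNAs host small nucleolar RNAs, except NEAT1, which builds paraspeckles. ZFAS1, another snoRNA host, was at 55.8 and 94.7 FPKM.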
